A study of Homo sapiens with 28 samples.

Results

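The genes described here are 37 genes of homologous recombination and the Fanconi pathway, chosen by name out of 63139 genes in the count table, and all 37 were found and passed the filter on low counts. Homologous recombination copies an intact duplex to mend a broken one, and the Fanconi pathway unhooks crosslinks between the strands of DNA and passes them on to recombination. Broken ends are first trimmed back to single strands, the BRCA proteins then load the recombinase, and partner proteins carry out strand exchange. In the Fanconi pathway a core complex attaches ubiquitin to the FANCD2-FANCI pair, and checkpoint kinases hold the cell cycle while repair goes on. Many of these genes are transcribed mainly in dividing cells, around DNA replication.

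RNA was sequenced from HepG2, a cell line from a human liver tumour. After 24 h without serum came 24 h of exposure, in 7 groups of 4 libraries each. The groups were water (H2O), 0.5 µM cadmium chloride (CdCl2, with H2O as its control), the solvent DMSO, and, each with DMSO as its control, 100 nM of the dioxin TCDD, 10 µM of the perfluorinated surfactant PFOS, 75 µM bisphenol A (BPA) and 0.1 µM tributyltin chloride (TBTCl). DMSO was at most 0.1% of the medium, all groups were the same cell line with no genetic change named in the labels, and the TCDD and PFOS libraries carry the names given after an exchange of labels that the series text records. The labels describe 4 independent experiments without saying whether a replicate number marks 1 experiment in every group, so p-values measure the spread between these libraries.

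Library totals ran from 28906900 to 66042414 counts, and 3 counts corresponded to 0.0434 to 0.104 CPM, a floor that covers counting error only. CPM scales counts to the library total, and all levels are CPM after TMM scaling. In what follows "called" means an adjusted p (Benjamini-Hochberg, 18849 genes) under 0.05 in edgeR's quasi-likelihood test. The 10 hepatocyte markers summed to 26648 to 72379 CPM over the 28 libraries, with ALB at a mean of 13602 CPM in DMSO. The 12 markers of other cell types summed to 42.6 to 72.8 CPM. Of these 12, only 1 had no count in DMSO libraries, PTPRC, the pan-leukocyte marker. In BPA libraries 2 had none, PTPRC among them. The other markers had counts there, and CD14, also a leukocyte marker, was called higher under BPA. TBTCl replicate 4 differed from the other libraries of its group in several of the 37 genes, and its values are given where they touch a result.

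Under BPA 23 of the 37 genes fell and 2 rose against DMSO, while none was called under CdCl2, TCDD, PFOS or TBTCl, nor in DMSO against water. Of all genes tested under BPA, 17.6% fell and 17.3% rose. The median log2 fold change of the 37 genes was -0.83, beside -0.02 over all genes. The groups did not overlap for 18 genes lower and 3 genes higher under BPA, where 17.1% of all genes were lower and 20.1% higher without overlap. In bulk RNA, fewer cells that transcribe a gene and less RNA of it per cell cannot be told apart. Blocking on the replicate number brought the calls to 26 down and 3 up, beside 21.4% of all genes down and 21.4% up in that fit.

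**Figure D1:**
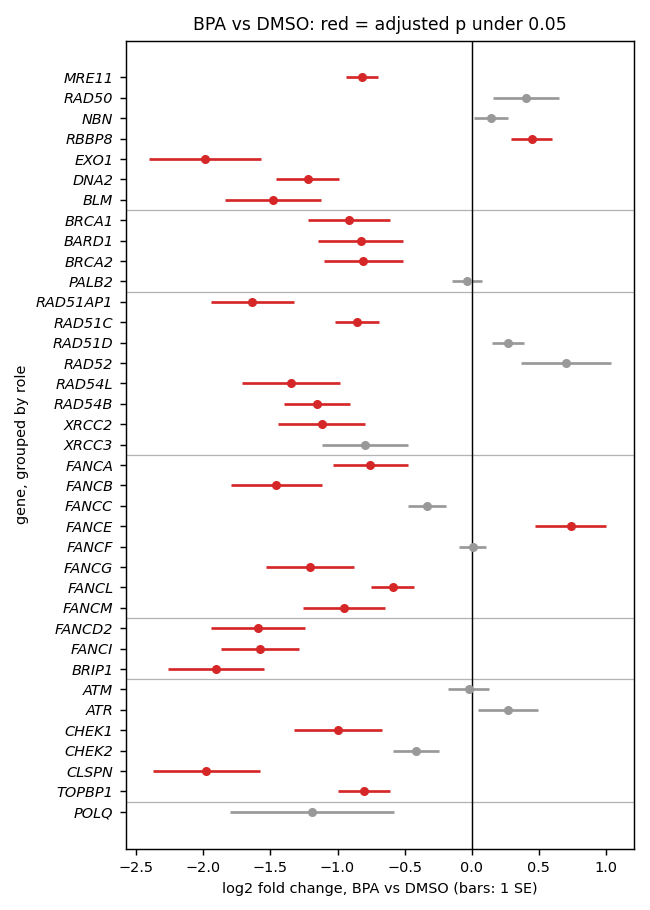
Log2 fold change of each of the 37 genes under BPA against DMSO (x axis, with bars of 1 SE), grouped by role, with called genes in red. The called falls run from -1.99 (EXO1) to -0.59 (FANCL), and RBBP8 and FANCE lie to the right of 0.

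Promoters are shown for the 3 genes with the smallest p among those that fell and held an E2F-type motif, CLSPN, EXO1 and FANCD2, and for RBBP8, the gene with the smallest p of the 2 that rose. E2F factors drive genes of DNA synthesis through such motifs. The letters searched, on both strands, were TTTCCCGC, TTTCGCGC, TTTGCCGC and TTTGGCGC, and capitals mark a match. Each line runs 5′ to 3′ on the gene's own strand, from 100 bases before to 30 bases after the RefSeq start of transcription, on GRCh38.p14. CLSPN lies on the minus strand at chr1:35769949-35770078, EXO1 on the plus strand at chr1:241848104-241848233, FANCD2 on the plus strand at chr3:10026337-10026466 and RBBP8 on the plus strand at chr18:22933228-22933357.
CLSPN: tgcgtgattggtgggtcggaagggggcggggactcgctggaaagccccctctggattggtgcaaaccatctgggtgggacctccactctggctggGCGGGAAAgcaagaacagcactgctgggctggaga
EXO1: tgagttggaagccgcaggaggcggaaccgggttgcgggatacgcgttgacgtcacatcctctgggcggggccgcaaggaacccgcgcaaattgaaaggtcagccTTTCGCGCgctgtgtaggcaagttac
FANCD2: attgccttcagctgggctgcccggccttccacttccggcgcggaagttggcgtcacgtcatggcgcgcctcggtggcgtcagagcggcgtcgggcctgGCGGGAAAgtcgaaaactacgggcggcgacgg
RBBP8: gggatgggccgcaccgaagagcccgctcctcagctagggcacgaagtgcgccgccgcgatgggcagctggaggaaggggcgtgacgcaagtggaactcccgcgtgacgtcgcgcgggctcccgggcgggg

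The match began at position -5 from the start in CLSPN, at -2 in FANCD2 and at 5 in EXO1, counting the first transcribed base as 1. RefSeq promoters of 300 bases (250 before and 50 after the start) were at hand for 33 of the 37 genes. The motif was in 7 of them (21.2%), those of CLSPN, EXO1, FANCD2, FANCA, FANCC, TOPBP1 and XRCC2, and in 3.33% of 27305 promoters of that length. Of these 7 genes 6 fell under BPA, FANCC being the exception at -0.33 (adjusted p = 0.0692, or 0.021 with the replicate block). Of the 26 genes without the motif in this window 14 fell and 2 rose. Only 1 promoter was taken per gene, so other starts of transcription of a gene, BRCA1 included, were not searched. TTTGAA, the CHR element of late cell cycle genes, was in 12.1% of the 33 promoters against 15.4% of all, and CCAAT in 42.4% against 35.7%. A match describes the letters of this window and shows no binding. The 27305 promoters set beside the 33 were not limited to genes expressed here or matched for base content.

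End resection opens a break for recombination. MRE11, the nuclease of the MRE11-RAD50-NBN complex that makes the first cut, stood at 26.3, 25.0, 24.4 and 30.8 CPM in the DMSO libraries and at 15.4, 13.7, 14.0 and 17.5 CPM under BPA. Every BPA library lay below every DMSO library. The log2 fold change was -0.81 ± 0.12 (4 libraries against 4, SE from the fit of all 28, adjusted p = 1.07e-05). That p was the smallest among the 37. The partners of MRE11 were not called. RAD50, the ATPase that tethers the ends, had 4.45, 5.18, 5.53 and 5.42 CPM in DMSO and 6.85, 7.35, 5.89 and 7.19 CPM under BPA, higher in all BPA libraries (0.41 ± 0.24, adjusted p = 0.205). NBN, the adaptor to the kinase ATM, overlapped between the groups (0.14 ± 0.13, adjusted p = 0.4). Whether MRE11 differed from its partners in its change was not tested.

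The 3 genes of long-range resection also fell. EXO1, a nuclease that digests one strand, stood at 13.0, 7.03, 4.88 and 15.5 CPM in DMSO and 3.06, 1.86, 1.62 and 3.57 CPM under BPA. That is 3.96-fold lower, without overlap (-1.99 ± 0.42, adjusted p = 0.000685). DNA2, the nuclease and helicase of the other long-range route, had 11.8, 8.52, 6.77 and 12.4 CPM in DMSO and 4.46, 3.58, 4.14 and 4.69 CPM under BPA (-1.22 ± 0.24, adjusted p = 0.000284). BLM, the helicase that works with DNA2 and also dissolves crossed strands, had 8.32, 5.76, 4.19 and 12.0 CPM in DMSO and 2.70, 2.73, 2.05 and 3.28 CPM under BPA (-1.48 ± 0.36, adjusted p = 0.00229). Neither gene's groups overlapped, though the DMSO libraries themselves spread widely, replicates 1 and 4 being the high ones.

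RBBP8 (CtIP), which starts resection with MRE11, went the other way. Its levels were 29.9, 24.5, 21.6 and 30.4 CPM in DMSO and 36.9, 43.9, 34.3 and 29.96 CPM under BPA, a rise of 0.45 ± 0.15 (adjusted p = 0.0249), with BPA replicate 4 just below the highest DMSO library. The call was lost under upper-quartile scaling (adjusted p = 0.0942), library-size scaling (0.134) and with no filter on low counts (0.065), and it was also lost without DMSO replicate 2 or 3 or BPA replicate 1 or 2 (0.0576 to 0.127). Against water in place of DMSO neither RBBP8 nor FANCE was called.

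The BRCA complex loads the recombinase onto resected DNA. BRCA1, BARD1 and BRCA2 fell and PALB2 was not called. BRCA1, the ubiquitin ligase subunit and tumour suppressor, stood at 26.2, 21.7, 15.7 and 38.3 CPM in DMSO and 15.9, 13.3, 8.34 and 16.4 CPM under BPA (-0.91 ± 0.30, adjusted p = 0.0216). Its partner BARD1 changed by -0.83 ± 0.32 (adjusted p = 0.0445), and BRCA2, the loader itself, by -0.81 ± 0.30 (adjusted p = 0.0349). PALB2, the bridge between BRCA1 and BRCA2, had 33.3, 33.4, 32.7 and 39.8 CPM in DMSO and 33.8, 35.2, 32.8 and 34.0 CPM under BPA, a difference of -0.04 ± 0.11. The BARD1 call was lost without DMSO replicate 1 or 4 or BPA replicate 1, 2 or 3 (adjusted p = 0.078 to 0.227), the BRCA2 call without DMSO replicate 1 or 4 or BPA replicate 3 or 4 (0.068 to 0.154), and the BRCA1 call without DMSO replicate 4 or BPA replicate 3 (0.117 and 0.0801).

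Among the paralogs and partners of the recombinase 5 of 8 fell. RAD51AP1, which helps the filament pair with its template, stood at 17.7, 9.72, 7.66 and 18.1 CPM in DMSO and 4.74, 4.34, 2.55 and 5.35 CPM under BPA. No BPA library reached the lowest DMSO library (-1.64 ± 0.31, 3.11-fold lower, adjusted p = 0.000222). RAD51C, a paralog that stabilises the filament, had 33.0, 32.5, 23.7 and 31.8 CPM in DMSO and 18.0, 16.9, 14.8 and 17.2 CPM under BPA (-0.85 ± 0.16, adjusted p = 0.00026). The translocase RAD54L stood at 27.6, 14.1, 13.1 and 29.3 CPM in DMSO and 9.29, 6.85, 5.99 and 10.8 CPM under BPA (-1.35 ± 0.36, adjusted p = 0.00572). For both genes the groups were apart.

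RAD54B, its relative, was scarce, at 1.55, 1.22, 1.47 and 1.43 CPM in DMSO and 0.754, 0.689, 0.331 and 0.723 CPM under BPA, with as few as 10 counts in a library (-1.16 ± 0.25, adjusted p = 0.000764). XRCC2, a paralog in the complex with RAD51D, fell by 1.12 on the log2 scale (adjusted p = 0.00914), while RAD51D was at 0.27 ± 0.12 (adjusted p = 0.0763). XRCC3, the partner of RAD51C, was at -0.79 ± 0.32 (adjusted p = 0.0555, or 0.00494 with the replicate block). RAD52, which anneals single strands, had 7.80, 3.64, 4.51 and 7.14 CPM in DMSO and 10.4, 9.31, 9.87 and 7.87 CPM under BPA, higher in every BPA library (0.70 ± 0.34, adjusted p = 0.109, or 0.0301 with the replicate block). POLQ, the polymerase of theta-mediated end joining, had the widest relative spread between DMSO libraries, 9.81, 2.81, 2.52 and 12.2 CPM, against 4.01, 2.83, 1.72 and 3.32 CPM under BPA, and was not called (-1.19 ± 0.61, adjusted p = 0.132).

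In the Fanconi pathway the FANCD2-FANCI pair and BRIP1 all fell, with log2 fold changes from -1.91 to -1.58. FANCD2 stood at 28.8, 19.6, 14.5 and 36.1 CPM in DMSO and 9.78, 7.44, 4.93 and 10.6 CPM under BPA (-1.59 ± 0.35, adjusted p = 0.00107). FANCI, its clamp partner, had 45.9, 30.8, 24.8 and 56.0 CPM in DMSO and 14.2, 13.3, 8.94 and 16.1 CPM under BPA (-1.58 ± 0.29, adjusted p = 0.000182). Both genes of the pair were about as much reduced, 3.01-fold and 2.99-fold, and neither overlapped between groups. BRIP1, the helicase that binds BRCA1, had 14.1, 10.1, 8.20 and 20.9 CPM in DMSO and 3.66, 3.33, 1.89 and 5.20 CPM under BPA, 3.75-fold lower (-1.91 ± 0.36, adjusted p = 0.000209).

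The core complex, which carries the ubiquitin ligase, was mixed, with 5 of 8 genes down and 1 up. FANCB, a structural subunit at low level, had 3.35, 1.81, 1.54 and 2.64 CPM in DMSO and 0.998, 0.666, 0.397 and 1.26 CPM under BPA (-1.46 ± 0.34, adjusted p = 0.00165). The ligase subunit FANCL, whose DMSO libraries were close together (19.5, 17.9, 19.5 and 17.3 CPM), was at 11.9, 11.8, 14.4 and 11.3 CPM under BPA, a smaller fall (-0.59 ± 0.16, adjusted p = 0.00627). FANCG fell by 1.20, FANCA by 0.76 and the anchor translocase FANCM by 0.95 on the log2 scale (adjusted p = 0.00601, 0.0367 and 0.0183). The calls of FANCA and FANCM were each lost without DMSO replicate 1 or 4 or BPA replicate 2 or 3 (adjusted p = 0.0553 to 0.131).

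FANCE, the subunit that binds FANCD2, rose: it stood at 9.47, 5.65, 6.66 and 11.8 CPM in DMSO and at 14.0, 15.0, 13.3 and 13.6 CPM under BPA, all above the DMSO libraries (0.74 ± 0.27, adjusted p = 0.0321). The water libraries were at 12.3, 5.80, 11.4 and 12.3 CPM, 2 of them above every DMSO library and none as high as any BPA library. This call was lost under upper-quartile and library-size scaling (adjusted p = 0.0713 and 0.0784) and without DMSO replicate 2 or 3 or BPA replicate 1 or 2 (0.062 to 0.13). FANCF, the adaptor subunit, stood at 13.0, 16.4, 15.1 and 17.3 CPM in DMSO and 13.7, 17.6, 14.6 and 16.2 CPM under BPA (0.01 ± 0.10).

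Of the checkpoint genes, the adaptors and CHEK1 fell and the apical kinases were not called. CLSPN (claspin), which brings CHEK1 to its kinase at stalled forks, stood at 26.1, 16.6, 11.0 and 25.3 CPM in DMSO and 5.85, 4.34, 2.45 and 7.25 CPM under BPA. All BPA libraries lay below all DMSO libraries, 3.94-fold lower on average (-1.98 ± 0.40, adjusted p = 0.000447). TOPBP1, the activator of ATR, had 44.4, 39.6, 34.7 and 45.2 CPM in DMSO and 25.1, 21.6, 20.1 and 27.1 CPM under BPA, again without overlap (-0.80 ± 0.19, adjusted p = 0.00241). CHEK1, the effector kinase, fell by 1.00 on the log2 scale (adjusted p = 0.02), a call lost without DMSO replicate 1 or 4 or BPA replicate 2 or 3 (0.0528 to 0.0781).

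The kinase ATR had 17.3, 16.8, 16.7 and 20.8 CPM in DMSO and 22.2, 24.1, 20.0 and 20.3 CPM under BPA (0.27 ± 0.22, adjusted p = 0.367), and ATM, which answers to double-strand breaks, had 52.1, 62.4, 64.3 and 50.4 and 57.4, 55.1, 58.1 and 55.1 CPM (-0.02 ± 0.15, adjusted p = 0.927). For both kinases the ranges met. CHEK2, the effector of ATM, was at -0.41 ± 0.17 (adjusted p = 0.0652, or 0.0186 with the replicate block).

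**Figure D2:**
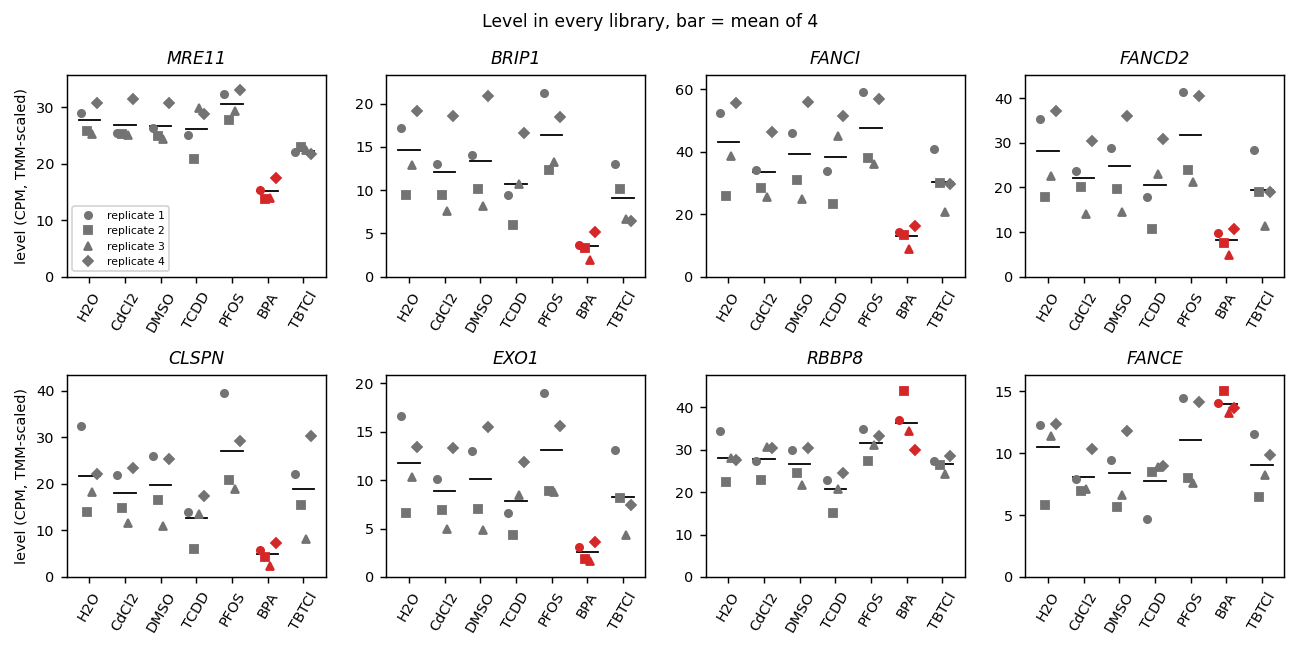
Level of 8 genes in each of the 28 libraries (y axis, CPM after TMM scaling; x axis, the 7 groups; marker shape gives the replicate number; the bar is the mean of 4; BPA in red). BRIP1, FANCI, FANCD2, CLSPN, EXO1 and MRE11 are lowest under BPA, and RBBP8 and FANCE are not.

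The other 4 exposures gave no call among the 37. Under CdCl2 29 genes had a negative and 8 a positive log2 fold change, with a median of -0.20, and 0.0212% of all genes were called. RAD54L was at 15.9, 12.4, 8.13 and 19.8 CPM under CdCl2 and 30.7, 12.6, 22.6 and 33.4 CPM in water, -0.82 ± 0.36 (adjusted p = 0.898), the most negative estimate there. Those groups overlapped. Under PFOS 35 of 37 estimates were positive, with a median of 0.25, and 0.0159% of all genes were called. XRCC3 had the highest PFOS estimate (0.49 ± 0.32, adjusted p = 1), from 26.6, 13.1, 13.1 and 24.0 CPM against 17.0, 10.3, 7.83 and 19.6 CPM in DMSO.

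TCDD changed more of the transcriptome, with 9.25% of all genes called, and none of the 37. The median was -0.17, with 30 negative and 7 positive estimates, the most negative being CLSPN (-0.63 ± 0.38, adjusted p = 0.373) at 14.0, 5.95, 13.6 and 17.5 CPM. Leaving TBTCl replicate 4 out of the fit gave 1 call, ATM, at -0.32 ± 0.11 (adjusted p = 0.049). The TCDD libraries held 52.3, 39.8, 47.5 and 45.0 CPM of ATM. Under TBTCl 27 estimates were negative and 10 positive (median -0.20), with 0.143% of all genes called. DMSO against water had 30 negative and 7 positive estimates (median -0.12), and 0% of all genes were called. At an unadjusted p under 0.05 the 37 gave 1 for CdCl2, 1 for TCDD, 0 for PFOS, 3 for TBTCl and 0 for DMSO. Over all 18849 genes the numbers were 940, 3962, 1043, 2937 and 431 in the same order. DESeq2 called 0 of the 37 in each of the 5. The 4 comparisons with DMSO share its libraries.

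TBTCl replicate 4 differed from the other TBTCl libraries gene by gene. It held 1.15 CPM of RAD50, 0.243 times the mean of the others, and ATR, TOPBP1 and ATM were at 0.404, 0.501 and 0.516 times. CLSPN and RAD51AP1 were at 1.98 and 1.96 times. These are the 4 lowest and the 2 highest ratios of the 37, and their cause was not tested.

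**Figure D3:**
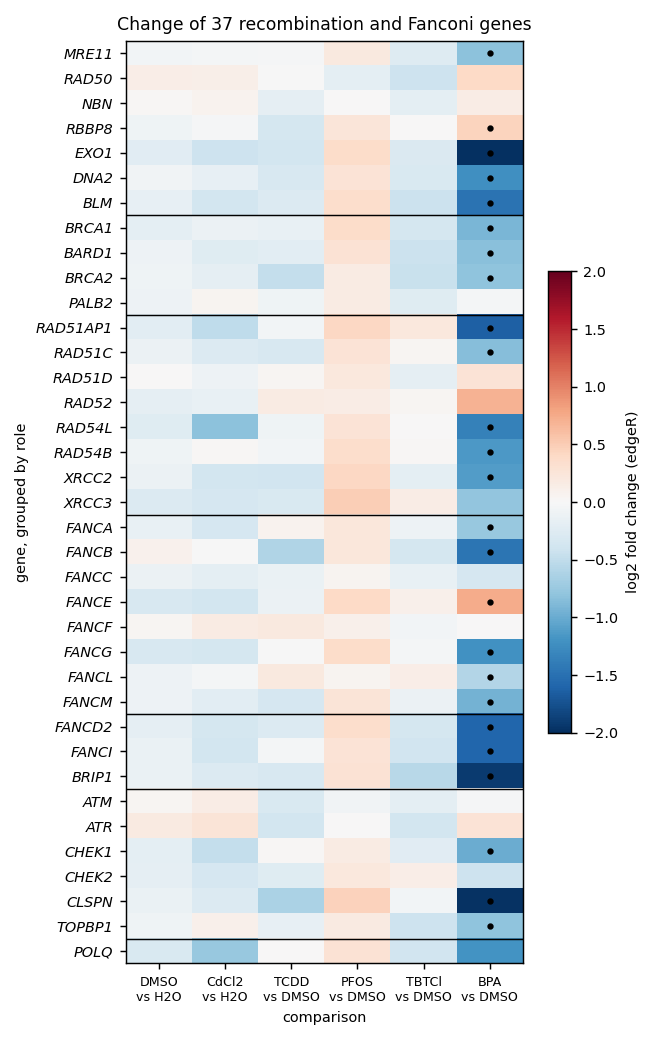
Log2 fold change (color, -2 to 2) of the 37 genes (rows, grouped by role) in 6 comparisons (columns), with a dot for each called gene. Dots appear in the BPA column alone, 25 in number, and the PFOS column is mostly on the positive side.

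Since a call in one exposure and none in another is no test of a difference, BPA was set directly against the others. Against PFOS 26 genes were lower and 0 higher under BPA (15.3% of all genes lower, 15.3% higher). Against TCDD 19 were lower and 4 higher (20.4% and 17.8% of all genes). The 4 higher were RBBP8 (0.80 ± 0.15, adjusted p = 0.000208), FANCE, ATR and NBN. Against TBTCl 19 were lower and 5 higher (18.1% and 16.7% of all genes). Without TBTCl replicate 4 the counts were 17 and 3, and the share over all genes was not taken. The 5 higher were RAD51D (0.45 ± 0.12), RAD50, RBBP8, ATR and NBN. TBTCl replicate 4 was the lowest TBTCl library for RAD50, ATR and NBN (1.15, 6.58 and 22.2 CPM) and not for RAD51D or RBBP8. Which of the 5 kept the call without it was not recorded. These exposures differ in dose, and each set uses the same BPA libraries.

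CLSPN was lower under BPA by -2.44 against PFOS, -1.92 against TBTCl and -1.34 against TCDD on the log2 scale (adjusted p = 5.28e-05, 0.000626 and 0.0086). It had the most negative estimate of the 37 genes against PFOS and TBTCl. The medians of the 37 were -1.13, -0.73 and -0.74 in the same order. MRE11 was lower by -1.01, -0.56 and -0.79 in the same order. BRCA2 was lower against PFOS (-0.98, adjusted p = 0.0137) and was not called against TCDD (-0.34) or TBTCl (-0.37). BRCA2 stood at 9.61, 4.46, 10.3 and 14.5 CPM in TCDD libraries and 14.2, 11.4, 9.11 and 19.1 CPM in DMSO. Those groups overlapped, and the difference was not called (-0.47 ± 0.29, adjusted p = 0.39). TBTCl against DMSO was not called for BRCA2 either (-0.44 ± 0.29, adjusted p = 0.472).

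CdCl2 has its own vehicle, so its change was subtracted from that of BPA. The difference was called for 8 genes more negative under BPA, MRE11, DNA2, RAD54B, FANCB, FANCI, BRIP1, CLSPN and TOPBP1, and 1 more positive, FANCE (7.81% and 8.70% of all genes). MRE11 gave -0.77 ± 0.17 (adjusted p = 0.00252) and FANCE 1.11 ± 0.37 (adjusted p = 0.0422). With the replicate block 14 were more negative and 1 more positive (12.4% and 13.3% of all genes), EXO1, BLM, RAD51AP1, RAD51C, FANCL and FANCD2 being added. The count of 9 fell to 5 without H2O replicate 2 or CdCl2 replicate 1. It fell to 4 without CdCl2 replicate 4, DMSO replicate 1 or DMSO replicate 4. It fell to 3 without H2O replicate 3, BPA replicate 2 or BPA replicate 3. Counts over all genes were not taken for these fits.

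Replicate numbers carried a pattern of their own. In a test of the 4 numbers over all 7 groups, added after the data were seen, 25 of the 37 genes differed, all with numbers 1 and 4 above 2 and 3, where 34.3% of all genes differed (6466), 1946 of them with numbers 1 and 4 above. POLQ ranged most, 1.36 on the log2 scale between numbers, followed by CLSPN and EXO1 at 0.94 each and RAD54L at 0.91. Replicates 1 and 4 lay above 2 and 3 for 30 of the 37 genes within DMSO, 29 within CdCl2 and 28 within PFOS. The count was 27 within water, 23 within BPA, 15 within TBTCl and 9 within TCDD. The share of all genes with this order inside each group was not computed. The summed level of the 37 genes was 796, 611, 542 and 867 CPM in DMSO and 513, 486, 427 and 515 CPM under BPA. What a replicate number stands for was not tested.

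**Figure D4:**
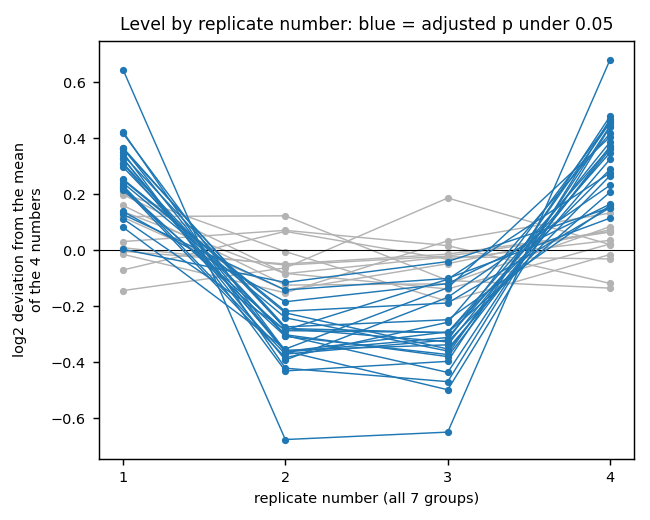
Mean level of each of the 37 genes by replicate number over all 7 groups, as log2 deviation from the mean of the 4 numbers (y axis), with called genes in blue. The 25 blue lines form a U that is high at numbers 1 and 4, and POLQ spans 1.36.

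At baseline the genes differed widely in level. In the 8 water and DMSO libraries, per kb of exon, FANCL was highest at 7.98 ± 0.66 CPM per kb (SD, n = 8), followed by PALB2 (7.61 ± 0.66), RAD54L (7.14 ± 2.67) and TOPBP1 (5.79 ± 0.76), each within the spread of its neighbour. RAD54B (0.28 ± 0.03) was lowest, below RAD50 (0.50 ± 0.05) and FANCB (0.63 ± 0.21). RAD50 thus stood at 0.50 CPM per kb beside 3.53 for MRE11 and 5.52 for NBN, its partners in 1 complex. RAD50 and MRE11 each overlap another gene on their own strand (AC116366.3 and AP000786.1). What this does to their counts was not tested, so the values are no measure of the ratio between the partners. The coefficient of variation over the 8 libraries ran from 8.25% for FANCL to 58.8% for POLQ. Exon length was taken over all annotated transcripts, which lowers the value of genes with many long isoforms.

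**Figure D5:**
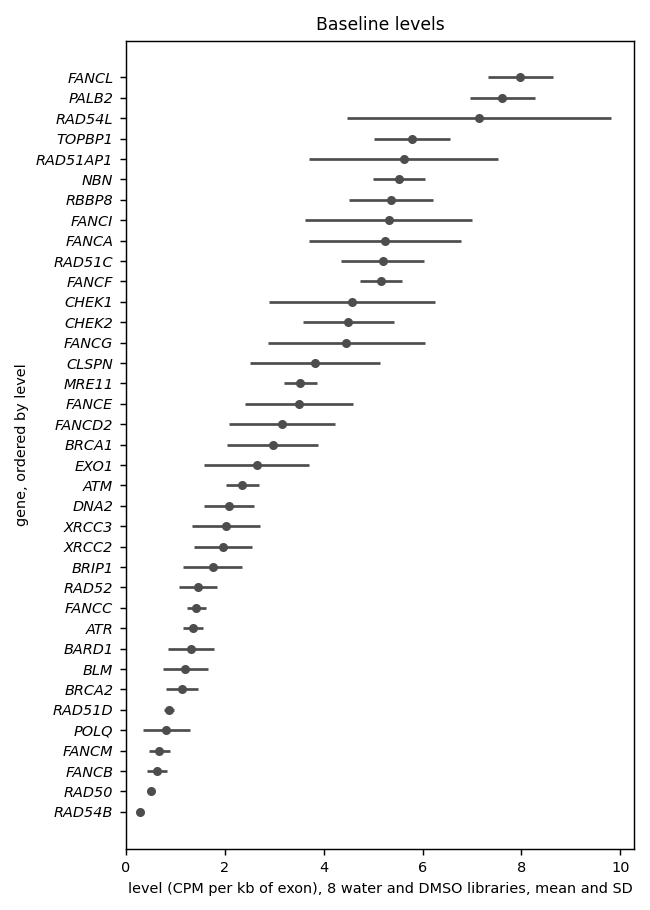
Baseline level of the 37 genes (x axis, CPM per kb of exon, mean and SD of the 8 water and DMSO libraries), ordered by level. FANCL is at the top with 7.98 and RAD54B at the bottom with 0.28.

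Neighbouring pathways were read from lists chosen with earlier results known. Their counts under BPA, here and in the lists that follow, stand beside 17.6% of all genes down and 17.3% up. Of 44 other recombination and Fanconi genes 15 fell under BPA, among them RPA2, which coats single strands (-0.97 ± 0.13, adjusted p = 3.88e-06), FAAP24, a partner of FANCM (-1.27 ± 0.19), and PARPBP (-1.23 ± 0.19). Another 3 rose, including MUS81, a nuclease that cuts joined strands (1.07 ± 0.15, adjusted p = 1.02e-05), while its partner EME1 fell (-1.59 ± 0.28). Of 12 genes of non-homologous end joining, the competing route, XRCC4 fell (-0.74 ± 0.19) and NHEJ1 rose (0.40 ± 0.13), and the median was -0.01. Of 21 genes of the checkpoint and chromatin response, H2AX (-1.17 ± 0.27) and ETAA1 fell and RAD17 (0.55 ± 0.11) and HUS1 rose.

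DNA replication genes moved with the 37, and their part in the result was not tested. Of 24 replication genes 21 fell under BPA (median -1.28), led by RRM2, a subunit of ribonucleotide reductase (-2.39 ± 0.33, adjusted p = 6.29e-06), TYMS (-1.27 ± 0.22), GINS4 and ORC1. Their summed level was 1010 to 2437 CPM in DMSO and 521 to 956 CPM under BPA, apart between the groups. Of 19 E2F and DREAM regulators 8 fell and 2 rose. E2F7 (-2.55 ± 0.36) and E2F8 (-2.65 ± 0.52), repressors that are themselves E2F targets, and FOXM1 (-1.36 ± 0.26) fell, and E2F6 rose (0.93 ± 0.11).

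The p53 targets were split, 8 down and 3 up of 20, where 17.6% of all genes fell and 17.3% rose. Their summed level was 1542 to 2139 CPM in DMSO and 1641 to 2166 CPM under BPA. DDB2, a sensor of ultraviolet damage, fell (-1.49 ± 0.14) and PLK3 rose (1.34 ± 0.14), while CDKN1A, the cell cycle inhibitor, was not called (0.28 ± 0.27, adjusted p = 0.441). Among hepatocyte markers 3 of 10 fell and 2 rose, with AFP at -1.33 ± 0.36 and HNF4A at 0.48 ± 0.15. Of the markers of other cell types, 8 of 12 were tested, CD14 rose (2.92 ± 0.28) and PECAM1 fell (-1.03 ± 0.17). Their part in the changes of the 37 genes was not tested.

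Several of these genes overlap a gene on the other strand, among them MRE11 with ANKRD49, FANCI with POLG, FANCA with ZNF276, RAD54L with LRRC41 and FANCL with VRK2. The libraries kept strand, but whether the counting used it is not known here, so reads of such pairs may be mixed. Others overlap a gene on the same strand, which a strand setting does not separate. These are RAD54B with FSBP, CHEK1 with STT3A, RAD51D with RAD51L3-RFFL and RAD50 with AC116366.3. The rest are MRE11 with AP000786.1, BRCA1 with AC060780.1, RAD52 with AC004803.1 and FANCC with AL161729.3. How reads in these overlaps were counted is not known here.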

How the data were processed

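Per the labels' protocols, poly(A) RNA from 28 HepG2 cultures was made into directional libraries. The authors deposited whole-number read counts per gene, for which the submitters' processing notes list fastp, STAR, HTSeq, DESeq2 and the build GRCh38. Their versions, the annotation and the strand setting are not stated there. The last row of the table, which ends without a line break, was left out, leaving 63139 genes, of which 62541 matched a symbol.

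The counts were fitted with edgeR 4.0.16 in R 4.3.3 (quasi-likelihood, TMM factors of 0.861 to 1.07), with 7 group means over all 28 libraries and 21 residual degrees of freedom. The filterByExpr step (minimum count 10) kept 18849 genes with 99.96% of the counts. The common biological coefficient of variation was 22.0%. The SE is the log2 fold change divided by the root of F, so it rests on the spread within all 7 groups. No 2 libraries of a group were copies by a chi-square test of their counts.

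Deviations of same-numbered libraries from their group means correlated at 0.123 to 0.593 between CdCl2, PFOS, BPA or TBTCl and the vehicle. For TCDD with DMSO the correlations ran from -0.21 to 0.44. Correlations between libraries with different numbers were not computed, so these values cannot show that a number marks a pair. Alternatives were other scalings and filters, DESeq2 1.42.0, a replicate block, only the compared groups, water in place of DMSO and each library left out. The 37 genes and the 8 lists (162 genes) were chosen with earlier results of these data known. Per comparison with calls, library values are given for up to 14 called genes by adjusted p and for each called gene against the majority, and from each list up to 4 called genes by adjusted p, with others named as examples chosen after their values were seen. Levels per kb use exons of GENCODE release 29, and promoters are from RefSeq.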

Additional observations from a re-analysis of the deposited data

Results flagged for a closer look

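A library stood apart from the other 3 of its group in 13 of 259 sets of 4 libraries (37 genes in 7 groups), by Dixon's criterion for a gap relative to the set's range, which chance gives in about 1 in 20. The high ones were 31.5 CPM of MRE11 in CdCl2 replicate 4, 39.8 CPM of PALB2 and 20.8 CPM of ATR in DMSO replicate 4, and 22.6 CPM of FANCL in H2O replicate 3. The low ones were 29.3 CPM of NBN in CdCl2 replicate 2, 23.7 CPM of RAD51C in DMSO replicate 3, 17.7 CPM of RAD51C in TCDD replicate 2 and 0.331 CPM of RAD54B in BPA replicate 3. In H2O replicate 2, RAD51AP1 was at 8.10 and FANCE at 5.80 CPM, both low. FANCE was also low in TCDD replicate 1, at 4.66 CPM. TBTCl replicate 4 was low for ATM (29.2 CPM) and PALB2 (22.6 CPM).

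Some of the 37 genes differed between BPA and another exposure by a test of the difference in edgeR. Between BPA and TCDD 23 of 37 were called (7218 of all 18849 genes), between BPA and PFOS 26 (5765 of all) and between BPA and TBTCl 24 (6564 of all). Between the BPA change and the CdCl2 change 9 were called (3113 of all), and as few as 3 with a library left out.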

How the results depend on the processing

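The 25 genes called under BPA against DMSO kept their direction under other scalings and filters, DESeq2, the replicate block, only the compared groups and each library left out. Of their values under these, 36 lost the call and 364 did not, and water in place of DMSO, which gave no call for RBBP8 and FANCE, is not among them. With each library left out in turn, 19 to 25 were called under BPA against DMSO. For BPA against TCDD, PFOS and TBTCl the counts were 18 to 22, 24 to 27 and 16 to 23. Counts over all genes were not taken with a library left out. The BPA change minus the CdCl2 change gave 9 calls, 3 to 11 with a library left out and 15 with the replicate block. TCDD against DMSO gave 1 call (ATM) with TBTCl replicate 4 left out of the fit, an alternative chosen after seeing the data. With the replicate block 29 genes were called under BPA against DMSO, and 28, 28 and 29 against TCDD, PFOS and TBTCl, beside 8084, 8686, 7273 and 8009 of all 18849 genes. The block gave 0 calls in the other 5 comparisons, and over all genes it raised the count from 4 to 28 for CdCl2, from 3 to 84 for PFOS and from 27 to 179 for TBTCl. DESeq2 called 15, 128 and 239 genes there. For TCDD, where not every same-numbered pair correlated, the block gave 2722 against 1743 genes. Upper-quartile and library-size scaling moved the median of all genes under BPA from -0.02 to -0.15 and -0.14, and the split of all genes from 3268 up and 3320 down to 2239 and 4345, and to 2169 and 4321. The 37 then gave 0 up and 26 down. RAD54B, at 10 counts in its lowest library, and FANCB, at 12, are limited most by depth.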
